A study of Homo sapiens with 39 samples.

Results

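The S100A genes described here are 8 members of the S100 family on the long arm of human chromosome 1 (band 1q21), namely S100A2, S100A3, S100A4, S100A6, S100A10, S100A11, S100A13 and S100A16. They are the S100A genes, among 23710 gene symbols in all, that pass a mean count limit of 10 in at least 1 of 5 tables, and they were listed with these tables' results known, so their values are a description that supports nothing. The tables hold 17 S100A symbols, and the other 9 had a mean count under that limit in all of them. The lowest member, S100A4, reached a mean count of 51.3 per the authors' deposited table of the RPE1 knockout, and the highest S100A gene left out, S100A1, reached 5.36 in the same authors' deposited table.

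S100 proteins are small, mostly dimeric proteins with a pair of EF-hands, helix-loop-helix motifs that hold calcium. Calcium opens a hydrophobic face on each subunit, through which most members bind a target such as an annexin, a myosin heavy chain or a ubiquitin-related adaptor. S100A10 is an exception, because its calcium loops are inactive and it stays in the open form, joined to annexin A2. Several members are abundant in epithelial and mesenchymal cells, and S100A6 was named calcyclin for its link to growth stimulation.

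The study lowered or raised TRIM37, an E3 ubiquitin ligase with a RING domain, and asked how gene expression responds in an untransformed and a cancer cell line. RNA sequencing covered 39 libraries in 9 groups. hTERT-RPE1 is a retinal pigmented epithelial line immortalised with telomerase, while CHP-134 cells come from a neuroblastoma. The RPE1 TRIM37 knockout had 9 libraries, against 9 of RPE1 wild type, and the labels number the wild type libraries as 3 sets of 3. CHP-134 TRIM37 mutant clone 1 and mutant clone 2, which the labels call partial knockouts, had 3 libraries each, against the same 3 of CHP-134 wild type. RPE1 TetOn clone 4 and TetOn clone 5 carry an inducible TRIM37 transgene, and each had 3 libraries with 1 µM doxycycline for 24 h, against 3 untreated. The CHP-134 mutant clones and the TetOn clones are single clones, the labels do not say how many clones the RPE1 knockout comprises, and nothing says that libraries of a group came from separate cultures, so the spread behind each p-value may be technical. No group treats cells without the transgene with doxycycline, so the drug and the transgene cannot be told apart.

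The authors' 5 comparisons alone were analysed, so there is no value per library and the depth of each library is unknown. A table gives, for each gene, a mean count over both groups, a log2 fold change, the standard error (SE) of that change and a q, the adjusted p-value of the authors' DESeq2 test. A gene is called here at a q under 0.05, and a gene is usable where the table marks it neither as Low (a mean count of at most 10) nor as Outlier. TRIM37 set the direction, because the tables do not name their numerator. Its log2 fold change was -1.95 (SE 0.046) per the authors' deposited table of the RPE1 knockout, -1.66 (SE 0.034) and -1.75 (SE 0.042) in those of CHP-134 clone 1 and clone 2, and 3.19 (SE 0.044) and 2.64 (SE 0.042) in those of TetOn clone 4 and clone 5. Marker genes went only in part with the labels. RPE65, which defines mature retinal pigment epithelium, did not pass a mean count of 0.173 in any authors' deposited table, while OTX2 and MITF were usable in RPE1. In CHP-134, DBH and TH were under the limit in both authors' deposited tables.

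Because the members share a chromosome band yet differ widely in level, stretches before 4 of their start sites are shown first. S100A6 changed most in CHP-134 cells, and S100A10 changed most in the RPE1 knockout. S100A4 stands beside S100A6 among usable genes, and S100A2 was the single member called lower in the knockout. The windows are from RefSeq on GRCh38.p14, reach from 250 bases before to 50 after a start, lie on the minus strand and matched all 8 members with 12 starts. All stretches read 5′ to 3′, and capitals mark CpG pairs, the dinucleotides that can carry DNA methylation.
S100A6, chr1:153536095-153536124: cCGCGaatgtgCGttgtgtaagccaCGgCG
S100A10, chr1:151993968-151993997: CGggagCGagggcagggCGtgggcCGCGCG
S100A4, chr1:153545886-153546056: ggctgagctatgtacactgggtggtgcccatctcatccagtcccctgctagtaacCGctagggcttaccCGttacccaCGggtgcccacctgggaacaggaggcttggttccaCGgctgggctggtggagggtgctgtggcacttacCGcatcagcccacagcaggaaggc
S100A2, chr1:153565866-153566094: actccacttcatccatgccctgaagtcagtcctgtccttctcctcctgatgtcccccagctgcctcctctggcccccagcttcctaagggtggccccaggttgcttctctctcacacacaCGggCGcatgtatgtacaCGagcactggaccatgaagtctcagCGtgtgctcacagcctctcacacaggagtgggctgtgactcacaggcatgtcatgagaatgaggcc
For S100A6 and S100A10, only the 30 bases richest in CpG are given, since annotated exons cover their windows.

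CpG content split the members. The 300-base windows of S100A10 and S100A6 held 32 and 31 CpG pairs, that of S100A11 held 22 and the 3 windows of S100A13 held 19, 11 and 12. The windows of S100A4 and S100A3 held 8 and 5, those of S100A2 held 5 and 4, and those of S100A16 held 3 and 8. Over all 35116 RefSeq promoter windows the median was 14. Beside the levels in CHP-134 cells, CpG content gave a mixed picture. S100A10, the richest, was listed at 0 there, and S100A4, among the poorest, was usable. Going the other way, S100A6, rich in CpG, had the highest mean count of the members there, and S100A16, poor in CpG, was listed at 0. A relation between CpG content and level was not tested.

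Short motifs were searched on both strands of the same windows, and a member counts if any of its windows holds the letters. Some members have several windows, so a share of members and a share of all windows are unlike measures, and no enrichment is read from them. The AP-1 letters TGANTCA were found before S100A2 and S100A3, and 7.71% of all windows hold them. The GC box GGGCGG was found in 6 of 8 members, against 45.0% of all windows, and the TATA box TATAAA in S100A4 and S100A13, against 11.5%. The E-box letters CANNTG were found in 5 members, against 68.7%. The TEAD letters GGAATG occurred in S100A16 alone among the members, and 14% of all windows hold them, while the STAT letters TTCNNNGAA occurred in S100A3 alone, against 7.66%. The CRE letters TGACGTCA and the NF-kB motif were in no member window, against 1.85% and 5.91%, and the p53 decamer motif was found in S100A16 alone, against 6.63%. These are descriptions of letters in a window, not of binding.

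The levels of the members in each group are implied by the mean count and the fold change, for groups of equal size. This gives for CHP-134 wild type, which both mutant clones share, a median ratio of 0.94 between the clone 1 and clone 2 tables over 12579 genes, with 95.1% of genes within 5% of it. To set tables and members beside each other, implied means were scaled to 1000000 summed mean counts of their table (CPM below) and, between members, divided by the length in kilobases of the longest GENCODE v29 transcript. The tables were scaled separately, so a level set across tables is approximate, and no spread between libraries can be given.

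S100A6 stood highest in every RPE1 group on the per-kilobase scale, at 1307 in the RPE1 knockout and 1307 in RPE1 wild type. S100A11 followed at 341 in the knockout and 305 in wild type. S100A16 had 327 in the knockout and 298 in wild type. Their order turned in TetOn clone 4, where S100A16 had 384 with doxycycline and 383 untreated, and S100A11 had 330 with doxycycline and 320 untreated, so these neighbours in the order are not set apart. S100A10 came next, with 167 in the knockout and 108 in wild type. S100A13 had 40.5 in the knockout and 34.5 in wild type. S100A2 (8.34 in the knockout, 10.8 in wild type), S100A3 (4.29 and 4.77 in the same groups) and S100A4 (2.16 and 1.56) closed the order. The 5 lower members kept this order in the other RPE1 groups, from S100A10 with 115 in TetOn clone 4 with doxycycline and 120 untreated to S100A4 with 1.49 with doxycycline and 1.34 untreated.

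**Figure D1:**
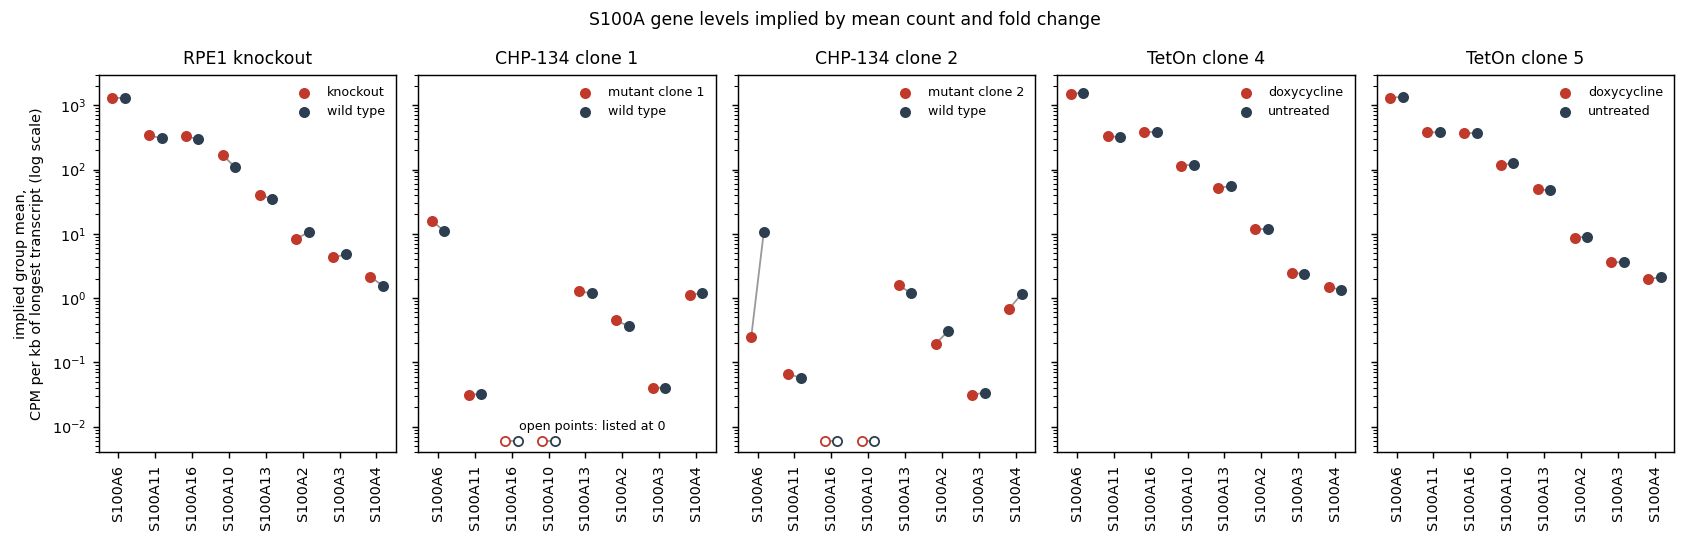
Implied group means of the 8 S100A genes as CPM per kilobase of the longest transcript, on a log scale, with the altered group (red) left of its control (dark) in each of the 5 comparisons and open points for genes listed at 0. S100A6 is at 1307 in both groups of the RPE1 knockout comparison, while in the CHP-134 clone 2 panel it is at 0.249 in clone 2 and 10.7 in wild type.

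Implied levels of the listed members were lower in CHP-134 wild type than in RPE1 wild type. S100A3, S100A10, S100A11 and S100A16 passed the count limit only in the RPE1 comparisons. They are members only through the line where they are high, so nothing is read from their low values in CHP-134. S100A10 and S100A16 were listed at 0 per the authors' deposited tables of both CHP-134 clones, and S100A3 and S100A11 had mean counts of at most 1.13 in them. S100A6 had an implied 880 CPM in RPE1 wild type, against 7.40 and 7.18 CPM in CHP-134 wild type as implied by the clone 1 and clone 2 tables, a 119-fold and a 123-fold difference. S100A13 had 75.4 CPM in RPE1 wild type, against 2.58 and 2.59 in CHP-134 wild type, or 29.2-fold and 29.1-fold. S100A4 was the nearest to even, with 1.18 CPM in RPE1 wild type, against 0.910 and 0.878 in CHP-134 wild type. In such bulk samples, fewer expressing cells and less RNA per cell cannot be told apart.

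In the RPE1 knockout all 8 members were usable, 5 were called higher and 1 was called lower than in wild type, while 53.6% of all 13002 usable genes were called in that table, 26.6% higher and 26.9% lower. Nothing is read from this count, since the members were chosen from the same tables. The median log2 fold change of the 8 was 0.15, beside -0.0022 over all usable genes and -0.021 over the 1292 usable genes of chromosome 1. No member changed by 1 or more on the log2 scale.

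S100A10 moved most. As the subunit that joins annexin A2 into a heterotetramer and carries plasminogen and ion channels to the cell surface, it had an implied mean count of 7357 in the knockout and 4763 in wild type. Its log2 fold change was 0.63 (SE 0.027, q printed as 0) per the authors' deposited table, or 1.54-fold. S100A11, which binds annexin A1, had 7422 in the knockout and 6638 in wild type, and its log2 fold change was 0.16 (SE 0.025, q = 3.14e-10) per the authors' deposited table. RefSeq names 10 S100A11 pseudogenes, and how reads that fit several copies were counted is not given, so its count is uncertain.

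S100A13, which takes part in the leaderless export of FGF1 and interleukin 1 alpha, had an implied mean count of 3241 in the knockout and 2759 in wild type, with a log2 fold change of 0.23 (SE 0.031, q = 1.01e-12) per the authors' deposited table. Its gene overlaps S100A1 and CHTOP, and reads of overlapping genes cannot be told apart where strand was not used. S100A16 had 13720 in the knockout and 12480 in wild type, and its log2 fold change was 0.14 (SE 0.018, q = 2.59e-13) per the authors' deposited table. Both differences were under 1.2-fold in size, at 1.17-fold and 1.1-fold.

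S100A4, also called metastasin, which binds non-muscle myosin IIA, had 59.6 in the knockout and 43.0 in wild type. It was the least certain of the calls, with a log2 fold change of 0.47 (SE 0.19, q = 0.0265) per the authors' deposited table, and its gene overlaps S100A5. S100A2, found mainly in epithelial nuclei and known to bind p53, had 305 in the knockout and 393 in wild type, 1.29-fold lower, with a log2 fold change of -0.37 (SE 0.075, q = 4.03e-06) per the authors' deposited table. S100A3, a cysteine-rich member known from hair cuticle, had 135 in the knockout and 150 in wild type, and its log2 fold change of -0.15 (SE 0.11, q = 0.264) per the authors' deposited table was not called.

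S100A6 had the highest level of the family and the smallest difference. Its implied mean count was 32200 in the knockout and 32200 in wild type, with a log2 fold change of 0.00043 (SE 0.039, q = 0.993) per the authors' deposited table. The 95% interval around it ran from -0.075 to 0.076. When the test statistics were scaled by their interquartile range, S100A10 alone remained called, 1 member in the knockout in place of 6.

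**Figure D2:**
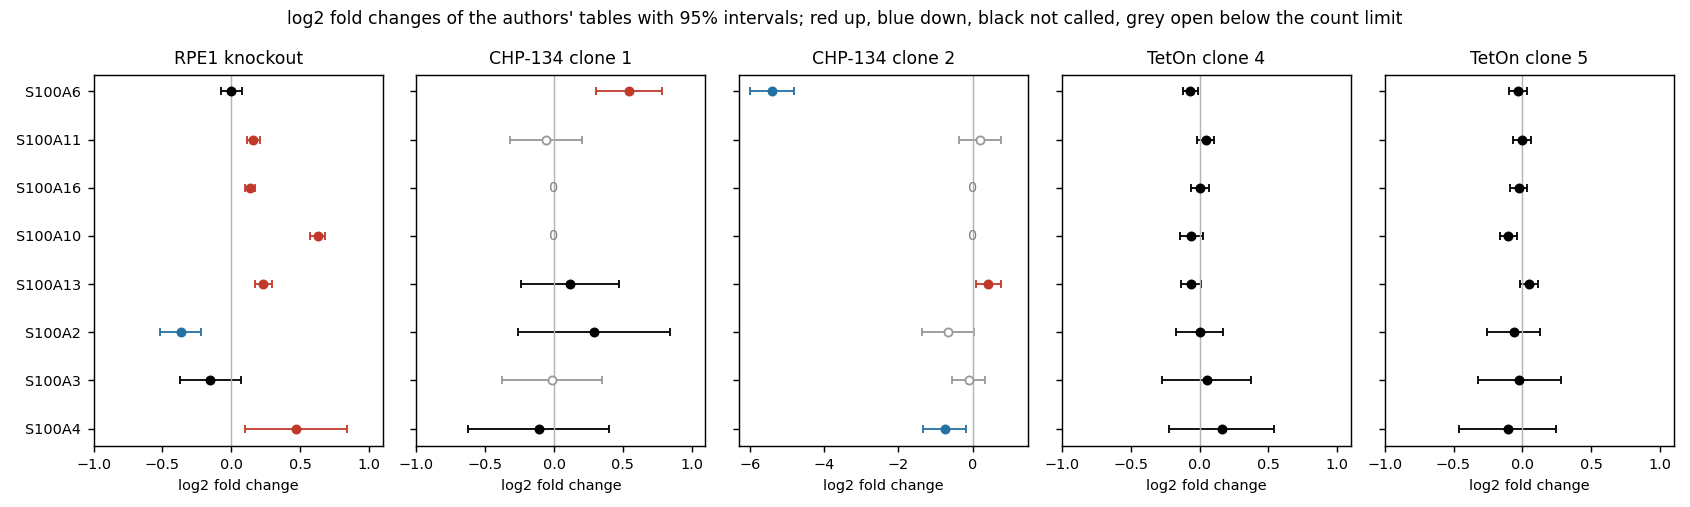
Log2 fold change of each S100A gene (rows) in the 5 comparisons, altered group over control, with 95% intervals, red for called higher, blue for called lower, black for not called, open grey for genes under the count limit and 0 for genes listed at 0; the CHP-134 clone 2 axis is wider. S100A6 at -5.42 in clone 2 stands farthest from 0 of all, and S100A10 at 0.63 stands farthest from 0 within the knockout panel.

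The CHP-134 mutant clones differed from each other in S100A6. In clone 1, 4 members were usable and 1 was called, against 18.7% of 12791 usable genes, 9.6% higher and 9.07% lower. In clone 2, 3 members were usable and all 3 were called, against 46.2% of 12771 usable genes, 22% higher and 24.2% lower. S100A6 was called in both, higher in clone 1 and lower in clone 2.

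S100A6 had an implied mean count of 313 in clone 1 and 215 in wild type. Its log2 fold change was 0.55 (SE 0.12, q = 0.000173) per the authors' deposited table of clone 1, or 1.46-fold. Clone 2 had an implied 5.16, against 221 in wild type. There the log2 fold change was -5.42 (SE 0.30, q printed as 0) per the authors' deposited table, or 42.8-fold lower. Among the 12771 usable genes of clone 2 this was the 5th largest fall, and 10 genes fell by 5 or more on the log2 scale. The implied 5.16 counts of clone 2 are few, and they are computed from this fold, so they are no separate measure of it. Among genes with a mean count under 1 in that comparison, no log2 fold change exceeded 0.519 in size and no SE exceeded 0.277. Whether the authors' fold changes were pulled toward 0 at low counts was not tested, so folds and intervals at few counts are uncertain.

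Clone 2 minus clone 1, the difference in log2 fold change of S100A6 was -5.97 (SE 0.32), the 5th lowest of the 12579 genes usable in both tables, whose median difference was -0.002. This SE treats the tables as separate although they share the wild type libraries, and no test was made because S100A6 was chosen with these values known. Of the 12579 genes, 1585 were called in both clones, 357 of them with opposite signs and 208 of these higher in clone 1 and lower in clone 2, as S100A6 was.

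The other members had mean counts of at most 93.3 in CHP-134 cells per the authors' deposited tables. S100A4 had an implied mean count of 24.4 in clone 1 and 26.4 in wild type, with a log2 fold change of -0.11 (SE 0.26, q = 0.819) per the authors' deposited table. In clone 2 it had 16, against 27.0 in wild type, with a log2 fold change of -0.76 (SE 0.30, q = 0.0292) per the authors' deposited table. Clone 2 minus clone 1, the difference was -0.64 (SE 0.40), and its 95% interval held 0.

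S100A13 had an implied 81.2 in clone 1 and 74.8 in wild type, with a log2 fold change of 0.12 (SE 0.18, q = 0.712) per the authors' deposited table. In clone 2 it had 107, against 79.8 in wild type, with a log2 fold change of 0.42 (SE 0.17, q = 0.0306) per the authors' deposited table. The difference between the clones was 0.30 (SE 0.25). S100A2 had 13 in clone 1 and 10.6 in wild type (q = 0.524 per the authors' deposited table), and in clone 2 its mean count of 7.68 per the authors' deposited table was under the limit. At a q under 0.01, only S100A6 remained called in clone 2.

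Markers of other cell types gave no uniform picture beside S100A6. Of 12 mesenchymal or Schwann-like markers, 7 were usable in clone 2, where 2 were called higher and 0 lower, against 46.2% of all usable genes called. In clone 1, 6 were usable, of which 1 was called higher and 2 lower, against 18.7% of all usable genes called. Summed mean counts of the 12 markers were 522 CPM in either table, and SOX10 was listed at 0. Of 4 leukocyte markers, 2 were usable in each clone, with summed mean counts of 2.17 CPM in the clone 1 table and 1.52 in the clone 2 table. PTPRC, the leukocyte antigen CD45, had a log2 fold change of -2.23 (SE 0.28, q = 1.03e-13) per the authors' deposited table of clone 2, at a mean count of 28.2. CD14, the other usable leukocyte marker, was not called there, at 0.27 (SE 0.32, q = 0.517) per the authors' deposited table. In clone 1 neither was called, with PTPRC at -0.0023 (SE 0.20, q = 0.996) and CD14 at 0.025 (SE 0.28, q = 0.967) per the authors' deposited table. Of 5 keratinocyte markers, 1 was usable in clone 1 and 0 in clone 2, with KRT5 and KRT14 listed at 0. The part of any of these in the S100A6 values was not tested.

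**Figure D3:**
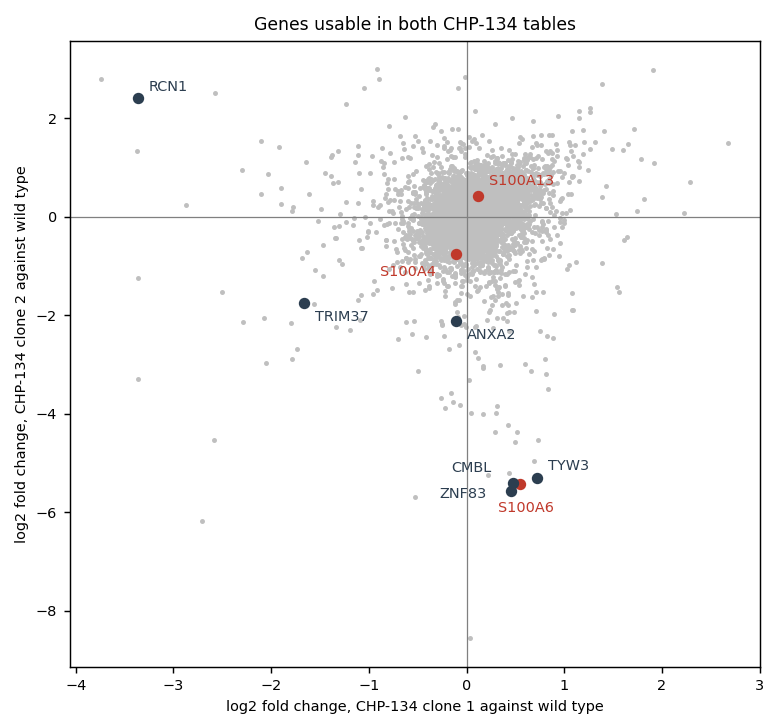
Log2 fold change against wild type in CHP-134 clone 1 (horizontal) and clone 2 (vertical) for the 12579 genes usable in both tables, with the 3 usable S100A genes in red and other named genes in dark. S100A6 lies at 0.55 and -5.42 beside ZNF83, TYW3 and CMBL, while S100A4 and S100A13 lie within the main cloud of genes.

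With TRIM37 induced, no S100A gene was called in either TetOn clone. In TetOn clone 4 all 8 members were usable and 0 were called by the authors' DESeq2 test, against 1.95% of 12153 usable genes (0.716% higher and 1.23% lower), and the members' log2 fold changes ran from -0.067 to 0.16. In TetOn clone 5 all 8 were usable and 0 were called by that test, against 2.97% of 12195 usable genes (0.795% higher and 2.17% lower), with log2 fold changes from -0.11 to 0.046. At an unadjusted normal p under 0.05, 1 member passed in clone 4, S100A6, against 10.1% of all usable genes, and 1 in clone 5, S100A10, against 10.7%.

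S100A6 had an implied mean count of 26570 with doxycycline and 27830 untreated in TetOn clone 4, with a log2 fold change of -0.067 (SE 0.028, q = 0.308) per the authors' deposited table. In TetOn clone 5 it had 20870 with doxycycline and 21330 untreated, with a log2 fold change of -0.032 (SE 0.034, q = 0.869) per the authors' deposited table. For S100A10 the means were 3643 with doxycycline and 3797 untreated in clone 4, and the log2 fold change was -0.059 (SE 0.043, q = 0.753) per the authors' deposited table. It came nearest to a call in clone 5, with 3349 with doxycycline and 3591 untreated, and a log2 fold change of -0.10 (SE 0.032, q = 0.0555) per the authors' deposited table. A q under 0.1, a mean count of at least 100 or centring on chromosome 1 each put S100A10 past the threshold in clone 5.

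With doxycycline, the SEs of S100A6, S100A10, S100A11, S100A13 and S100A16 ran from 0.028 to 0.043 per the authors' deposited tables. For S100A16 the 95% interval ran from -0.065 to 0.068 in clone 4 and from -0.090 to 0.037 in clone 5. S100A11 had -0.015 to 0.10 in clone 4 and -0.071 to 0.066 in clone 5. S100A13 was on opposite sides of 0, at -0.063 (SE 0.036) and 0.046 (SE 0.033) per the authors' deposited tables of clone 4 and clone 5, and clone 5 minus clone 4 gave 0.11 (SE 0.049), which was not tested. The low members S100A2, S100A3 and S100A4 had SEs from 0.087 to 0.20 per the authors' deposited tables. The 0.47 of S100A4 in the knockout lay outside the interval of S100A4 in clone 5, which ran from -0.46 to 0.25. It lay inside that in clone 4, which ran from -0.22 to 0.54. Over all genes, the largest SE was 0.204 in each TetOn clone and 0.422 in the knockout. Intervals at few counts are thus unlike between these comparisons, and the one in clone 5 cannot exclude such a change.

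Proteins that S100A members bind or act through were followed as a list of 34 genes. Of 30 usable in the knockout, 13 were called higher and 9 lower, where 53.6% of all usable genes were called, and the median log2 fold change was 0.052. Of 24 usable in each CHP-134 clone, 2 were called higher and 4 lower in clone 1 (median -0.046, against 18.7% of all usable genes called), and 7 higher and 10 lower in clone 2 (median -0.13, against 46.2%). Of 29 usable in each TetOn clone, 0 were called higher and 4 lower in clone 4 (median -0.052, against 1.95%), and 0 higher and 9 lower in clone 5 (median -0.063, against 2.97%). Medians over all usable genes were between -0.012 and 0.0020 in the 5 tables.

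ANXA2, the annexin that S100A10 joins, was lower in clone 2, as S100A6 was, but not called in clone 1. It had an implied mean count of 828 in clone 2 and 3572 in wild type, with a log2 fold change of -2.11 (SE 0.078, q printed as 0) per the authors' deposited table. Clone 1 had 3131, against 3369 in wild type, and the log2 fold change of -0.11 (SE 0.072, q = 0.327) per the authors' deposited table was not called. In the knockout, where S100A10 was 1.54-fold higher, ANXA2 had 92480, against 88920 in wild type, with a log2 fold change of 0.057 (SE 0.025, q = 0.0393) per the authors' deposited table. Doxycycline gave -0.086 (SE 0.021, q = 0.00388) and -0.069 (SE 0.015, q = 0.000562) per the authors' deposited tables of TetOn clone 4 and clone 5. AHNAK, the scaffold of the S100A10 and annexin A2 complex, was marked Outlier in all 5 tables and has no q.

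S100A6 binds CACYBP, a ubiquitin-related adaptor, and SUGT1, a co-chaperone. CACYBP was lower in clone 2, at -0.43 (SE 0.078, q = 2.45e-07), not called in clone 1, at -0.11 (SE 0.059, q = 0.175), and slightly higher in the knockout, at 0.076 (SE 0.032, q = 0.0309), per the authors' deposited tables. SUGT1 was lower in clone 1, at -0.26 (SE 0.063, q = 0.00072), and in clone 2, at -0.41 (SE 0.078, q = 1.27e-06), per the authors' deposited tables. SUGT1 was thus called lower in both clones, whereas S100A6 was called higher in clone 1 and lower in clone 2. MYH9, the myosin heavy chain that S100A4 binds, was lower in the knockout, at -0.64 (SE 0.047, q = 3.2e-41), and higher in clone 2, at 0.23 (SE 0.071, q = 0.00468), per the authors' deposited tables, opposite in sign to S100A4 in both. SYT1, the calcium sensor found with S100A13 in the FGF1 export complex, was 2.91-fold higher in the knockout, at a log2 fold change of 1.54 (SE 0.042, q printed as 0) per the authors' deposited table. In the CHP-134 clones it was slightly higher in clone 1, at 0.15 (SE 0.049, q = 0.0168), and lower in clone 2, at -0.28 (SE 0.058, q = 1.19e-05), where S100A13 was higher, per the authors' deposited tables. The exported proteins' genes were lower in the knockout, FGF1 at -0.52 (SE 0.049, q = 3.32e-25) and IL1A, whose mean count of 10.4 was just over the limit, at -1.91 (SE 0.38, q = 1.86e-06), per the authors' deposited table.

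ALCAM, an adhesion protein reported as an S100 receptor, was higher in clone 1, at 0.40 (SE 0.039, q = 5.66e-22), and lower in clone 2, at -1.38 (SE 0.058, q printed as 0), per the authors' deposited tables, the same signs as S100A6. It was also lower in the knockout, at -0.35 (SE 0.025, q = 1.5e-43) per the authors' deposited table. The urokinase receptor PLAUR went the other way between the clones, at -0.52 (SE 0.13, q = 0.00106) in clone 1 and 0.47 (SE 0.094, q = 3.53e-06) in clone 2, and was at 0.44 (SE 0.027) in the knockout, per the authors' deposited tables. Urokinase itself, PLAU, was lower in the knockout at -0.22 (SE 0.033), in TetOn clone 4 at -0.14 (SE 0.042) and in the other TetOn clone at -0.23 (SE 0.034), per the authors' deposited tables.

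TGM2, the transglutaminase that cross-links S100A10 and S100A11, was called in all 5 tables. It was 1.57-fold higher in the knockout, at 0.65 (SE 0.018), and lower in clone 1 at -0.56 (SE 0.18) and clone 2 at -2.38 (SE 0.22), per the authors' deposited tables. It was lower with doxycycline as well, at -0.32 (SE 0.039) in TetOn clone 4 and, in clone 5, at -0.29 (SE 0.030), per the authors' deposited tables. CAPN2, a calpain, was at 0.087 (SE 0.013) in the knockout, -0.14 (SE 0.022) in TetOn clone 4 and, in clone 5, -0.13 (SE 0.020), called each time per the authors' deposited tables. TGM2 and CAPN2 thus had opposite signs in the knockout and with induction.

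Of 12 other S100 family genes, 0 were usable. S100PBP, which was listed with them, encodes a nuclear protein that binds S100P and is not a family member. It was lower in the knockout at -0.40 (SE 0.049), in clone 1 at -0.20 (SE 0.051) and in clone 2 at -0.21 (SE 0.062), called each time per the authors' deposited tables. With doxycycline it was at 0.040 (SE 0.059) and 0.062 (SE 0.055), not called, per the authors' deposited tables of TetOn clone 4 and clone 5. S100P itself had mean counts of at most 0.81 per the authors' deposited tables. Of 17 genes of the epidermal differentiation complex, which lies between S100A11 and S100A6 and holds the S100 fused-type genes such as FLG, 0 were usable in any table.

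Among 25 EF-hand genes outside the S100 family, 9 were called higher and 5 lower of 22 usable in the knockout, 2 higher and 3 lower of 22 in clone 1, and 6 higher and 4 lower of 21 in clone 2, where 53.6%, 18.7% and 46.2% of all usable genes were called in these 3 tables. With doxycycline, 0 of 19 were called in clone 4 by the authors' DESeq2 test, and 1 of 18, CALU, was called lower in clone 5, against 1.95% and 2.97% of all usable genes. RCN1, a calcium-binding protein of the endoplasmic reticulum, was opposite to S100A6 between the CHP-134 clones, at -3.36 (SE 0.16) in clone 1 and 2.41 (SE 0.10) in clone 2, per the authors' deposited tables. CALU, of the same protein family, was lower in the knockout at -0.19 (SE 0.031) and in clone 1 at -0.22 (SE 0.049), per the authors' deposited tables.

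Usable genes around the members had no value near that of S100A6 in clone 2. With 25 genes on each side of the members in RefSeq order and those between them, 80 neighbours are in the tables and 20 were usable in clone 2. Their log2 fold changes ran from -0.12 (ILF2) to 2.26 (THEM4), and to 0.56 without THEM4, per the authors' deposited table of clone 2. In clone 1, 19 were usable and ran from -0.30 (CGN) to 0.41 (CELF3), per the authors' deposited table. In the knockout, 18 were usable and ran from -0.70 (TDRKH) to 0.83 (OAZ3), per the authors' deposited table, a range that holds every member. Its upper end is OAZ3 alone, with a mean count of 17.1 and an SE of 0.29 per the authors' deposited table. The next highest neighbour, THEM4, was at 0.51, under the 0.63 of S100A10.

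THEM4, a thioesterase gene that lies next to S100A10 among usable genes, was at 0.51 (SE 0.052) in the knockout and 2.26 (SE 0.30, q = 5.19e-13) in clone 2, per the authors' deposited tables. ILF2, which encodes an RNA-binding protein, was at 0.096 (SE 0.023) in the knockout, -0.14 (SE 0.041) in clone 1 and -0.12 (SE 0.041) in clone 2, called each time per the authors' deposited tables. CHTOP, which overlaps S100A13, was at 0.061 (SE 0.026) in the knockout and 0.060 (SE 0.080) in clone 2, per the authors' deposited tables, against 0.23 and 0.42 for S100A13.

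**Figure D4:**
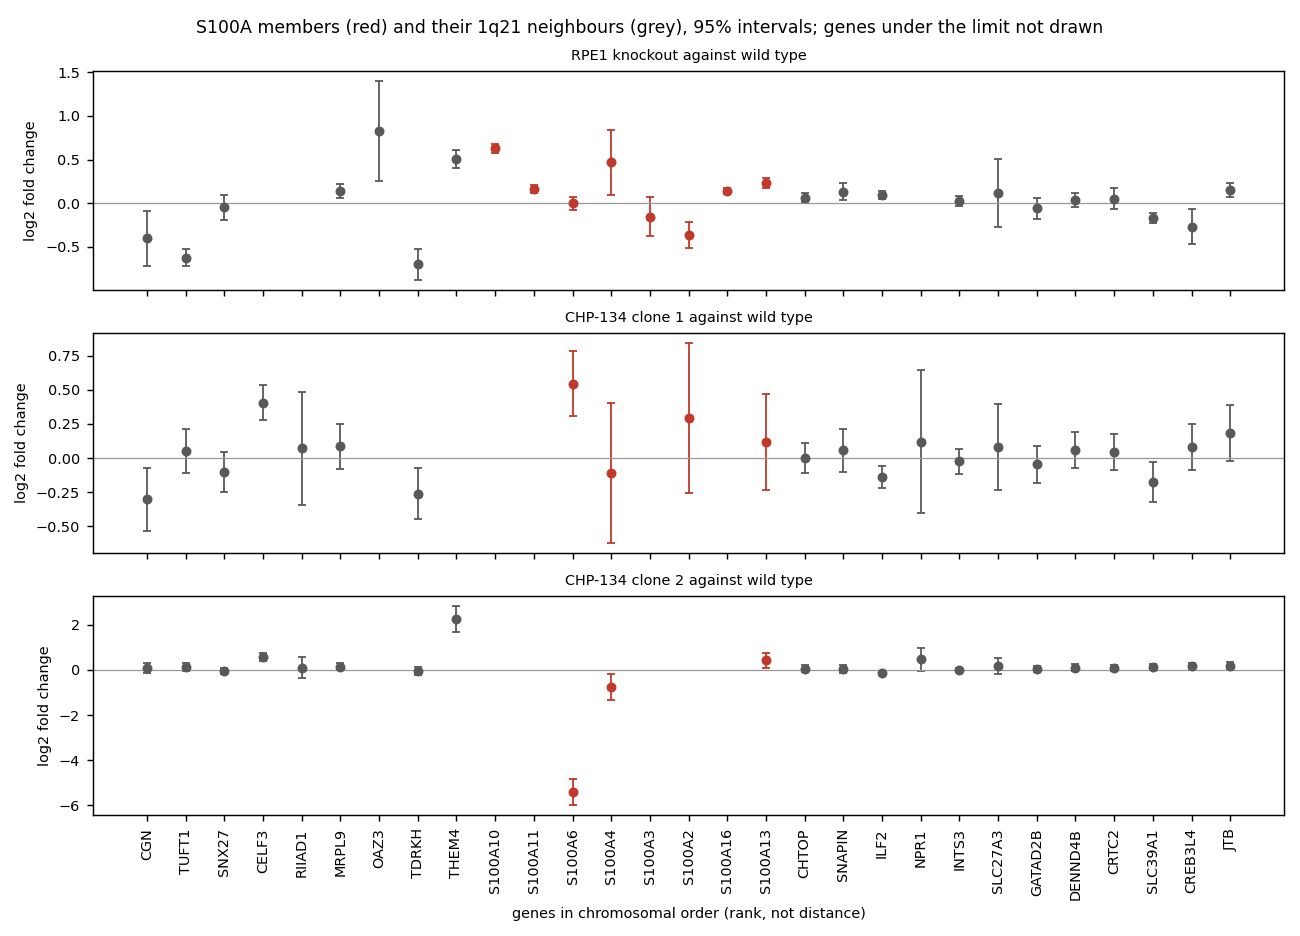
Log2 fold change (bars are 95% intervals) of the S100A genes (red) and usable neighbours (grey) in their order along 1q21, by rank and not by distance, for the RPE1 knockout, CHP-134 clone 1 and CHP-134 clone 2. In clone 2 S100A6 is at -5.42, while the usable neighbours in grey lie between -0.12 and 2.26. The other usable S100A genes there are S100A4, next to S100A6 in this order, at -0.76 and S100A13 at 0.42.

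The genes with the pattern nearest to a member were found by the Euclidean distance over the 5 log2 fold changes, among 10284 genes usable in all 5 tables. For S100A6 these were ZNF83 on chromosome 19 (distance 0.186), TYW3 on chromosome 1 (0.258) and CMBL on chromosome 5 (0.707), where the median distance to all genes was 5.44. That median is close to the size of the -5.42 of S100A6 itself in clone 2, where 10 genes fell by 5 or more. The nearest genes to S100A6 come from those few, so nothing is read from the contrast with the median. ZNF83, a zinc finger gene, was at 0.46 (SE 0.12) in clone 1 and -5.57 (SE 0.30) in clone 2, per the authors' deposited tables. TYW3, a gene of transfer RNA modification, was at 0.72 (SE 0.11) in clone 1 and -5.30 (SE 0.30) in clone 2, per the authors' deposited tables. CMBL, a hydrolase gene, was at 0.47 (SE 0.12) in clone 1 and -5.40 (SE 0.30) in clone 2, per the authors' deposited tables. CMBL was called higher in the knockout, at 0.70 (SE 0.074, q = 2e-20) per the authors' deposited table, where S100A6 was at 0.00043, and this makes up most of its distance.

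S100A4 was nearest to B3GNT5, LONRF3 and GLI3, at distances of 0.231, 0.275 and 0.290, against a median of 0.956. For S100A13 the nearest were CACNB3, UBE2L6 and FAM102A, at 0.0660, 0.0823 and 0.0877, against a median of 0.630. Many genes lie near 0 in all tables, so a small distance is common for a gene with small changes such as S100A13. The distance is a description over 5 comparisons, of which the CHP-134 pair shares its wild type libraries.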

How the data were processed

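RNA sequencing libraries (39, in 9 groups taken from the labels) were compared by the authors in 5 tables. Per the submitters' processing notes they used STAR and DESeq2, whose versions, like the genome build, annotation, counting rule and strand setting, were not given in the sources used here. Per the file headers, each deposited table gives a Status, a mean count whose scaling is not stated, the log2 fold change, its SE and a q value (an adjusted p-value), to 3 significant digits. A q printed as 0 is below what the file could hold. The members and the gene lists were chosen with earlier results of these data known.

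The authors' q under 0.05 was used as deposited, over usable genes, and no count model was fitted. No interval beyond the authors' SE was available for a single gene. The median SE of usable genes came to 0.055 in the knockout, 0.086 and 0.089 in CHP-134 clone 1 and clone 2, and 0.067 and 0.065 in TetOn clone 4 and clone 5. Implied group means were computed from the mean count m and log2 fold change, as the pair whose average is m and whose ratio is the fold change. The computation of the normal p of the alternatives was run on values simulated with normal errors of the deposited SEs. That run checks the computation and cannot show whether a normal p suits the authors' estimates. Named genes are all members, TRIM37, S100PBP, list genes called in at least 3 tables, ANXA2, AHNAK, CACYBP, MYH9 and SUGT1, and the 3 genes of nearest pattern; PTPRC, RPE65 and other markers, the ends of the neighbour range, FGF1, IL1A, THEM4 and CHTOP were named after their values were seen. The 25 neighbours on each side and the per-kilobase scale were also chosen after seeing the data. Symbols were matched to RefSeq on GRCh38.p14 (22699 of 23710). Python 3.11.15, numpy 2.4.6, pandas 2.3.3, scipy 1.17.1 and matplotlib 3.10.9 were used.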

Additional observations from a re-analysis of the deposited data

How the results depend on the processing

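Summary values (counts of called members and medians) stayed within 1.5 times their count or within 1 SE in 41 settings, were lower in 8 and higher in 3. With a minimum change of 1 on the log2 scale, the count fell to 0 in the RPE1 knockout (6 as deposited), to 0 in CHP-134 clone 1 (1 as deposited) and to 1 in clone 2 (3 as deposited). With test statistics scaled by their interquartile range it was 1 in the knockout, 0 in clone 1 and 1 in clone 2. In clone 2 it was also 1 at a q under 0.01 and with a mean count of at least 100, and the gene was S100A6 each time. In TetOn clone 5 it was 1, S100A10, against 0 as deposited, at a q under 0.1, with a mean count of at least 100 and with the chromosome 1 median subtracted. The cause was not tested beyond what each setting does by construction. Subtracting the median of all genes or of chromosome 1 moved no single member by more than 0.032, reversed 0 called values, and moved 1 single value by more than its SE, S100A16 in the knockout, to 0.16, against 61 that stayed within it. No paired analysis was possible because the files analysed hold no value per library. For the same reason leaving out replicates, another normalization, dropping the filter on raw counts before a fit and another pseudocount were not run. Depth per library is unknown, and the S100A6 level in clone 2 and the S100A2, S100A3 and S100A4 levels rest on few counts.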
